A study of Mus musculus with 16 samples.

Results

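The genes described here are 9 transcription factor genes of the enteroendocrine lineage, the hormone-producing cells of the gut epithelium: *Neurog3*, *Neurod1*, *Insm1*, *Pax4*, *Rfx6*, *Nkx2-2*, *Isl1*, *Pax6* and *Lmx1a*. They were taken by name, from what is known of the lineage, out of 45513 genes in the count tables. Earlier results of these data were known when they were chosen. All 9 passed the filter on low counts that left 15323 genes. RNA was sequenced from epithelial (EpCAM+) live cells of the small intestine of 8 mice, sorted on the red fluorescent reporter tdTomato (tdTom) into a tdTom+ and a tdTom- fraction, which gave 8 libraries per fraction and 16 in all. All mice were Atoh1(WT)CreERT2 R26RtdTom animals on a C57BL/6 background, males and females of 8 to 16 weeks, homozygous for the CreERT2 allele and heterozygous for the reporter. The allele carried the wild-type *Atoh1* sequence, and each mouse received tamoxifen, per the labels 1 mg per day on 3 days in a row. The methods of the study also describe a single injection on the day before collection for sequencing, and which schedule applied was not resolved.

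In these mice CreERT2 was placed downstream of the coding sequence of *Atoh1*, which encodes a master regulator of the secretory fate. Tamoxifen therefore switched the reporter on in cells that expressed *Atoh1* at that time, and the label stayed in their descendants. A tdTom+ cell is a labelled cell of the *Atoh1* lineage. A tdTom- cell is either outside that lineage or was not labelled. The cells came from the proximal 15 cm of the small intestine after the villus-enriched fraction had been discarded, so both fractions were crypt-enriched. No cell was sorted on an enteroendocrine marker.

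Enteroendocrine cells arise from secretory progenitors in the crypt. *Neurog3* is switched on for a short time in the progenitors that commit to this fate, and it turns on a cascade of further factors. Some of these, such as *Neurod1*, *Insm1*, *Nkx2-2*, *Rfx6*, *Isl1* and *Pax6*, act in the maturing cells, and others, such as *Lmx1a* in serotonin-producing enterochromaffin cells, act in a subtype. *Atoh1* itself lies upstream of *Neurog3* and is low in mature enteroendocrine cells.

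*Neurog3* and *Neurod1* encode basic helix-loop-helix proteins, which bind the E-box, the sequence CANNTG, where N is any base. The RefSeq promoter table (GRCm38.p6) held 8 windows for 7 of the 9 genes, with *Pax6* present with 2 start sites and *Insm1* and *Pax4* not matched. An E-box lay within the 250 bases before the start site in 6 of these 8 windows, against 66.2% of all 32851 windows in the table. The bases before the start site are given for 4 genes of the cascade, to show which E-boxes they hold. Each runs 5′ to 3′ on the strand of its gene, with every E-box in capitals. Where GENCODE M21 places an exon of the gene upstream of the RefSeq start site, the sequence ends before that exon.
Neurog3, chr10:62132840-62133089, + strand: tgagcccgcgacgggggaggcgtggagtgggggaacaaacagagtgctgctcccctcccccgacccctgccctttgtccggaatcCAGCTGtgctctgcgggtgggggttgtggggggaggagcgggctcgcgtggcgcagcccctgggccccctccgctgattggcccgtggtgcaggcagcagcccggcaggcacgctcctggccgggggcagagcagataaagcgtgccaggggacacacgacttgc
Neurod1, chr2:79456752-79456886, - strand: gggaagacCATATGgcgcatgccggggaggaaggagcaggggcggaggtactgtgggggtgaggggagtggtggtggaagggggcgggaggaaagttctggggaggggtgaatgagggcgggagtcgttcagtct
Nkx2-2, chr2:147186456-147186652, - strand: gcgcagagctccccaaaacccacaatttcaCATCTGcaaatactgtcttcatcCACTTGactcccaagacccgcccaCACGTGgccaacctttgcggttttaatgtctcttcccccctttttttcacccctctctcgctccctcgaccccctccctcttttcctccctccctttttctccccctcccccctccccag
Isl1, chr13:116309690-116309938, - strand: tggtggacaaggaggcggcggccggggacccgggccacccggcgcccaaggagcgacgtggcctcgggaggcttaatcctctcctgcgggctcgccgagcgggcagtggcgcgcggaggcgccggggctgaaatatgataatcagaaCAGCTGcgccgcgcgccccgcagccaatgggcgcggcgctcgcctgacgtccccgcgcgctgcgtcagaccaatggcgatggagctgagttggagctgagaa
The window of *Neurog3* held 1 E-box, CAGCTG, that began 165 bases before the start site, and that of *Isl1* held the same letters 103 bases before its start site. CAGCTG was found in 13.0% of all windows. The window of *Nkx2-2* held 3 E-boxes, among them CATCTG, which with its reverse complement CAGATG was found in 14.4% of all windows. The bases printed for *Nkx2-2* lie within the bounds of the gene in the count tables, between exons of its longer annotated transcripts. The whole window also reaches into the exon before which the sequence was cut. The E-box of *Neurod1* was CATATG. These forms are all cases of CANNTG, and the matches describe letters in a window and no binding.

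The libraries held 17116405 to 25323567 counts assigned to genes. *Atoh1*, the gene that drives the label, checked the sort: its mean was 62.5 ± 12.7 CPM (counts scaled to a common library size with TMM factors, mean ± SD, n = 8) in tdTom+ against 0.718 ± 0.247 CPM in tdTom-, a log2 difference of 6.43 (SE 0.12, adjusted p = 8.5e-14, edgeR quasi-likelihood F-test with Benjamini-Hochberg adjustment). The summed level of 4 goblet markers was 77600 to 169000 CPM in tdTom+ and 631 to 1040 CPM in tdTom-, and that of 4 Paneth markers was 26800 to 65600 against 207 to 303 CPM. The 4 absorptive markers summed to 764 to 3320 CPM in tdTom+ and 7360 to 21400 CPM in tdTom-. The libraries of mouse 7 stood apart. In tdTom- its absorptive sum of 7360 CPM lay below 13300 to 21400 CPM in the other 7 tdTom- libraries, and its stem marker sum of 2220 CPM lay above their 784 to 1310 CPM. Results that rest on this mouse are given with and without it.

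All 9 factor genes were higher in tdTom+ than in tdTom-. Each passed an adjusted p of 0.01, each was higher in 8 of 8 mice, and for none did the 8 tdTom+ levels overlap the 8 tdTom- levels. Of all genes tested, 25.8% were called higher and 30.0% lower in tdTom+, and 14.6% were higher with no overlap between the fractions. In 8 of 8 mice, 3507 of the 15323 genes tested were higher in tdTom+. The median log2 difference was 2.40 over the 9 genes and 0.02 over all genes tested. The summed level of the 9 genes was 92.4 to 183.0 CPM in tdTom+ and 16.1 to 33.4 CPM in tdTom-. In such bulk libraries, a smaller number of enteroendocrine cells and less RNA of a gene per cell cannot be told apart.

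**Figure D1:**
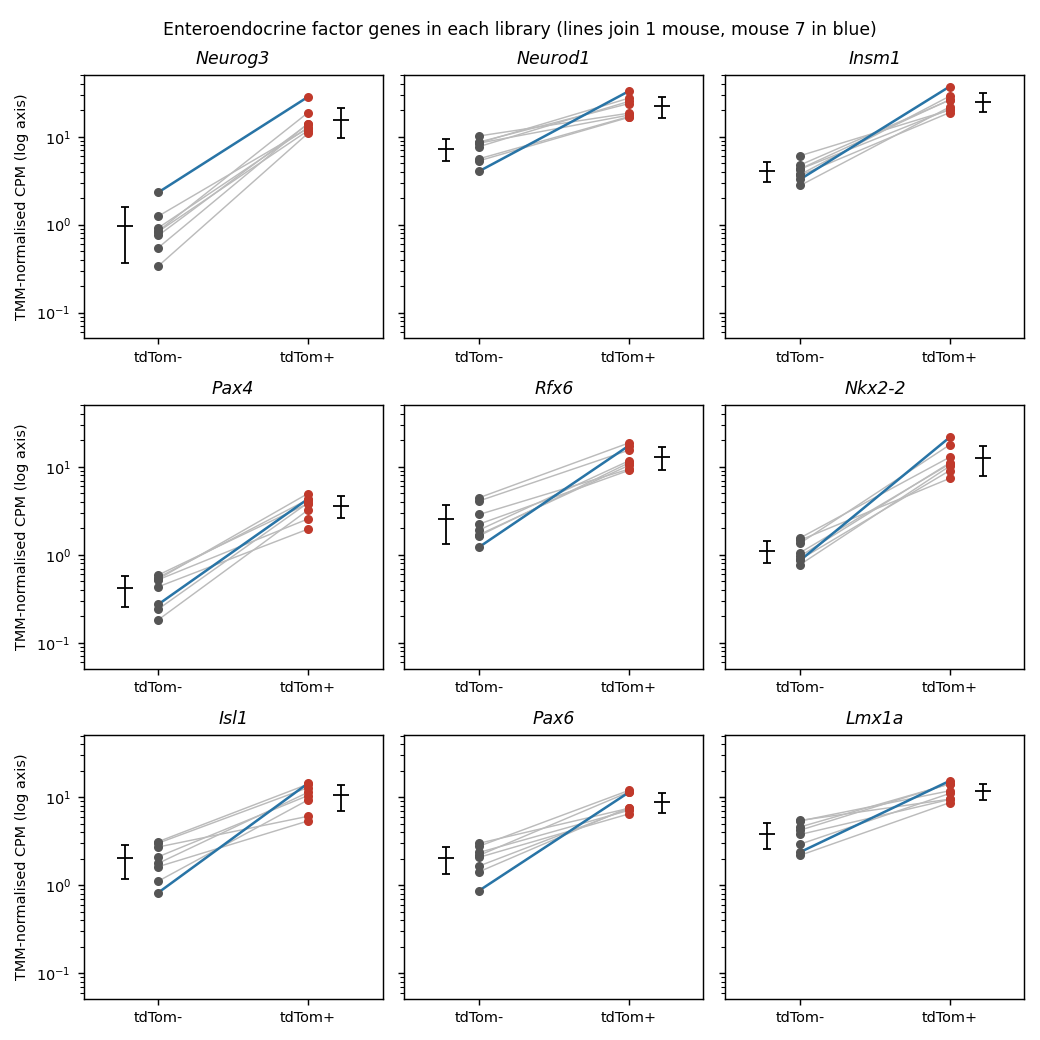
TMM-normalised CPM (log axis) of each factor gene in the 8 tdTom- (grey) and 8 tdTom+ (red) libraries, with a line for each mouse, mouse 7 in blue, and the mean ± SD beside each fraction. All lines rise from tdTom- to tdTom+ and no panel has overlapping fractions; *Neurog3* ran from 0.339 to 2.33 CPM in tdTom- and from 10.9 to 28.3 CPM in tdTom+.

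*Neurog3* (ENSMUSG00000044312, GRCm38 chr10:62133090-62134763, + strand), the factor at the head of the cascade, had the largest difference of the 9. Its level in tdTom+ was lowest at 10.9, median 13.3 and highest at 28.3 CPM, from 171 to 564 counts. In tdTom- it ran from 0.339 over a median of 0.84 to 2.33 CPM, from 7 to 51 counts. The highest library of each fraction came from mouse 7, and the lowest of each from mouse 3. The fitted log2 difference was 4.01 (SE 0.15, adjusted p = 5.0e-11), a 16.1-fold higher level in tdTom+. The per-mouse differences ran from 3.21 in mouse 2 to 4.66 in mouse 3. The coefficient of variation of its tdTom- levels was 62.1% over 8 mice and 36.6% without mouse 7.

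*Neurod1* (ENSMUSG00000034701, chr2:79452521-79456751, - strand) encodes a helix-loop-helix factor induced by *Neurog3* and kept on in many mature enteroendocrine cells. Its tdTom+ levels were 16.6 to 32.9 CPM with a median of 21.1, and its tdTom- levels 4.06 to 10.2 CPM with a median of 8.09. The tdTom- fraction thus held 89 to 188 counts of this gene in every library, above any of the other 8 factors in mean level. The log2 difference was 1.61 (SE 0.18, adjusted p = 2.2e-06), a 3.05-fold higher level and the smallest among the 9 genes. Mouse 7 was the extreme in both fractions, highest in tdTom+ and lowest in tdTom-, and without it the difference was 1.43.

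*Insm1* (ENSMUSG00000068154, chr2:146221921-146225020, + strand), a zinc-finger repressor that follows *Neurog3*, had the highest mean CPM of the 9 in tdTom+. It ran there from 18.8 over a median of 23.9 to 37.2 CPM, and in tdTom- from 2.79 over 4.0 to 6.08 CPM. Its level was 6.05-fold higher in tdTom+, a log2 difference of 2.60 (SE 0.15, adjusted p = 4.1e-09). The lowest tdTom+ library therefore stood well clear of the highest tdTom- library.

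*Pax4* (ENSMUSG00000029706, chr6:28442334-28449353, - strand), a paired-homeobox factor that acts early in several endocrine subtypes, was the least abundant of the 9 by CPM in both fractions. The tdTom+ libraries held 32 to 95 counts of it and the tdTom- libraries 4 to 14, against a floor of 3 counts, or 0.1185 to 0.1753 CPM. Its levels were 1.96 to 4.97 CPM with a median of 3.86 in tdTom+, and 0.183 to 0.591 CPM with a median of 0.478 in tdTom-. The log2 difference was 3.11 (SE 0.21, adjusted p = 1.8e-08), or 8.64-fold. At these counts the tdTom- level of a single library is imprecise.

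*Rfx6* (ENSMUSG00000019900, chr10:51677756-51730429, + strand), a winged-helix factor downstream of *Neurog3*, ran from 9.13 over a median of 11.4 to 18.7 CPM in tdTom+. In tdTom- it ran from 1.23 over 2.08 to 4.47 CPM. This was a log2 difference of 2.40 (SE 0.18, adjusted p = 5.9e-08), or 5.27-fold. The libraries of mouse 4 were the highest of both fractions, and the tdTom- library of mouse 7 was the lowest of its fraction.

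*Nkx2-2* (ENSMUSG00000027434, chr2:147177546-147194243, - strand), a homeobox factor needed for the choice between enteroendocrine subtypes, came after *Neurog3* in the size of its difference. Its tdTom+ levels were 7.4 to 21.7 CPM with a median of 11, and its tdTom- levels 0.776 to 1.56 CPM with a median of 1.02. The level was 11-fold higher in tdTom+, a log2 difference of 3.46 (SE 0.18, adjusted p = 1.2e-09). The tdTom+ levels had a coefficient of variation of 38.0% over 8 mice and of 29.5% without mouse 7, which was again the highest.

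*Isl1* (ENSMUSG00000042258, chr13:116298281-116309689, - strand), a LIM-homeodomain factor of maturing hormone cells, ran from 5.35 over 10.8 to 14.3 CPM in tdTom+ and from 0.821 over 1.94 to 3.12 CPM in tdTom-. The log2 difference was 2.37 (SE 0.23, adjusted p = 6.7e-07), or 5.16-fold. Its per-mouse differences ran from 1.13 in mouse 2 to 3.97 in mouse 7, with an SD of 0.86 over 8 mice and of 0.60 without mouse 7. The tdTom+ libraries of mice 1 and 2 lay closest to the tdTom- range.

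*Pax6* (ENSMUSG00000027168, chr2:105668900-105697364, + strand), a paired-homeobox factor that acts on hormone genes such as *Gcg*, ran from 6.44 over 7.54 to 11.9 CPM in tdTom+. In tdTom- it ran from 0.867 over 2.12 to 2.99 CPM. The fit gave a log2 difference of 2.12 (SE 0.20, adjusted p = 4.3e-07), or 4.35-fold. The lowest tdTom- value was again that of mouse 7.

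*Lmx1a* (ENSMUSG00000026686, chr1:167689237-167848741, + strand), the LIM-homeodomain factor of enterochromaffin cells, ran from 8.65 over 11.4 to 15.3 CPM in tdTom+ and from 2.18 over 3.98 to 5.43 CPM in tdTom-. The log2 difference was 1.63 (SE 0.17, adjusted p = 1.1e-06), or 3.10-fold. Its size was close to that of *Neurod1*. *Tph1*, the serotonin synthesis enzyme of the same cells, had a log2 difference of 1.11 (SE 0.12, adjusted p = 2.3e-06) in the same fit.

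The differences did not fall evenly along the cascade. Ordered by stage, the fitted log2 difference was 4.01 for the early factor, 1.61 to 3.46 for the 5 intermediate factors, 2.37 and 2.12 for the late factors *Isl1* and *Pax6*, and 1.63 for the subtype factor *Lmx1a*. *Neurod1*, counted as intermediate, stood beside *Lmx1a* at the low end. In each mouse the 9 differences were also ranked. *Neurog3* held rank 1 in 7 of 8 mice and rank 6 in mouse 7, where *Nkx2-2* held rank 1. *Lmx1a* was among the last 2 in 8 mice and *Neurod1* in 7.

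Whether the difference of *Neurog3* exceeded that of each other factor was tested over mice on log2 CPM with a prior count of 2, with an exact two-sided sign-flip test whose smallest possible p with 8 mice is 0.00781. The 8 pairs were adjusted together by the Benjamini-Hochberg method, and 7 passed 0.05. The excess was 2.33 ± 0.80 (SD, n = 8 mice) over *Neurod1*, 2.32 ± 0.72 over *Lmx1a* and 1.37 ± 0.60 over *Insm1*, each in 8 of 8 mice (exact p = 0.00781, adjusted p = 0.0179). It was 1.84 ± 0.82 over *Pax6*, 1.60 ± 0.98 over *Isl1*, 1.56 ± 0.85 over *Rfx6* and 1.07 ± 0.69 over *Pax4*, each in 7 of 8 mice (exact p = 0.0156, adjusted p = 0.0179). Over *Nkx2-2* it was 0.60 ± 0.76 in 7 of 8 mice and did not pass (exact and adjusted p = 0.0781). Mouse 7 was the exception in these 5 pairs. Without it the excess over *Nkx2-2* was 0.82 and passed (exact test, adjusted p = 0.0156). This excess also passed after the libraries were thinned to the smallest total (0.69, exact test, adjusted p = 0.0391). It did not pass with a prior count of 0.5 (0.63) or without the pairing by mouse (0.60). Nor did it pass when any 1 mouse other than mouse 7 was left out (0.48 to 0.65). The smallest possible p is larger with fewer mice.

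**Figure D2:**
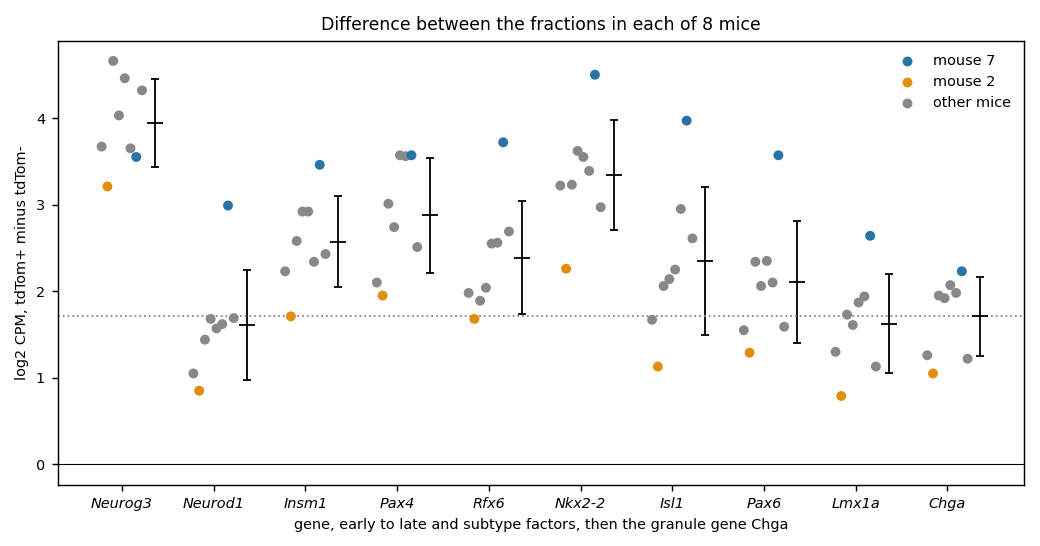
Difference in log2 CPM between tdTom+ and tdTom- for each of 8 mice (points, mouse 7 in blue and mouse 2 in orange), with the mean ± SD beside them, for the 9 factor genes from early to late and for the granule gene *Chga*; the dotted line marks the mean of *Chga*. All points lie above 0, *Neurog3* sits highest in all mice but mouse 7, and *Neurod1* and *Lmx1a* straddle the line of *Chga*.

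*Chga* encodes chromogranin A, a protein of hormone granules that marks most enteroendocrine cells, and served as a reference within the lineage. Its level was 466 ± 93.3 CPM in tdTom+ against 144 ± 38.3 CPM in tdTom-, a log2 difference of 1.71 (SE 0.13, adjusted p = 6.7e-08). The differences of 7 of the 9 factors exceeded that of *Chga* (exact two-sided sign-flip test, adjusted over 9 pairs). The excess was 2.23 ± 0.56 for *Neurog3*, 1.64 ± 0.36 for *Nkx2-2*, 1.17 ± 0.30 for *Pax4*, 0.87 ± 0.30 for *Insm1*, 0.64 ± 0.64 for *Isl1* and 0.40 ± 0.39 for *Pax6*, each in 8 of 8 mice (exact test, adjusted p = 0.0117). For *Rfx6* it was 0.68 ± 0.56 in 7 of 8 mice (exact test, adjusted p = 0.0201). The call for *Pax6* was lost when the libraries were permuted without pairing by mouse (exact test, adjusted p = 0.0669). *Lmx1a* and *Neurod1* did not pass, with a difference from *Chga* of -0.08 ± 0.23 (exact test, adjusted p = 0.404) and -0.10 ± 0.46 (exact test, adjusted p = 0.562), each higher in 2 of 8 mice.

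The mice differed from each other in a way that the 9 genes shared, though not these genes alone. Mouse 2 had the smallest difference for 9 of 9 genes, and mouse 7 the largest for 8 of 9, all but *Neurog3*. The same 2 mice were the extremes for *Chga*, *Chgb*, *Tph1*, *Ghrl*, the tuft markers *Dclk1* and *Trpm5*, *Iapp* and *Ret*. Other listed genes had other extremes, such as *Gcg*, smallest in mouse 1 and largest in mouse 3. How many of all genes share the pattern was not counted. The tdTom+ library of mouse 7 was the highest of its fraction for 6 of the 9 factors. Its tdTom- library was the lowest for *Neurod1*, *Rfx6*, *Isl1* and *Pax6* but the highest for *Neurog3*, with 51 counts. Marker levels of mouse 7 stood apart in both fractions. Beside the absorptive and stem sums given above, mouse 7 shared 2 traits with mouse 8. In tdTom- its tuft sum was 10.9 CPM, near 16.6 CPM in mouse 8 and below 33.1 to 52.2 CPM in the other 6. Its tdTom- lymphocyte sum was 29.8 CPM, near the 33.0 CPM of mouse 8 and above 5.01 to 12.3 CPM in the other 6. In tdTom+ the tuft sums of mice 7 and 8 were also the lowest, at 72.1 and 58.7 CPM. Its tdTom+ library had the lowest absorptive sum, 764 against 1510 to 3320 CPM, and the highest Paneth sum, 65600 against 26800 to 51200 CPM. The part of these markers in the values of mouse 7 was not tested. Without mouse 7, all 9 genes were still called, with log2 differences of 4.12 for *Neurog3*, 3.28 for *Nkx2-2*, 3.00 for *Pax4*, 2.47 for *Insm1*, 2.22 for *Rfx6*, 2.17 for *Isl1*, 1.94 for *Pax6*, 1.49 for *Lmx1a* and 1.43 for *Neurod1*.

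Levels were compared between genes as CPM per kilobase of exon, since longer genes collect more reads. In tdTom+ the order of mean levels per kilobase was *Neurog3* (9.95), *Neurod1* (8.19), *Insm1* (8.05), *Nkx2-2* (4.39), *Lmx1a* (3.46), *Rfx6* (3.24), *Isl1* (2.64), *Pax4* (1.85) and *Pax6* (0.754). Of 8 pairs of neighbours, 4 differed over mice (exact two-sided sign-flip test, adjusted over 8 pairs). The pairs were taken from the order of these same levels, here and in tdTom-. Which gene of a pair was higher on average was therefore set by that order. These were *Insm1* above *Nkx2-2*, *Isl1* above *Pax4* and *Pax4* above *Pax6* (exact test, adjusted p = 0.0208 each), and *Rfx6* above *Isl1* (exact test, adjusted p = 0.0312). The call for *Rfx6* above *Isl1* was lost when any 1 of 6 mice was left out. Its log2 size was 0.32 with all mice and 0.26 to 0.35 without 1 of these, and the smallest possible p is larger with fewer mice. *Neurog3* against *Neurod1* (exact test, adjusted p = 0.104) and *Neurod1* against *Insm1* (exact test, adjusted p = 0.641) did not pass, and *Neurog3* against *Insm1* was not tested.

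In tdTom- the order changed. *Neurod1* came at the top with 2.68 CPM per kilobase, before *Insm1* (1.33), *Lmx1a* (1.13), *Neurog3* (0.634), *Rfx6* (0.632), *Isl1* (0.513), *Nkx2-2* (0.389), *Pax4* (0.213) and *Pax6* (0.174). Here 3 of 8 neighbour pairs differed, *Neurod1* above *Insm1*, *Nkx2-2* above *Pax4* and *Pax4* above *Pax6* (exact test, adjusted p = 0.0208 each). *Neurog3* and *Rfx6* did not differ there beyond their spread (exact test, adjusted p = 0.906), and the place of *Neurog3* rested on mouse 7. Without that mouse its mean in tdTom- was 0.509 CPM per kilobase, at rank 6 after *Rfx6* (0.678) and *Isl1* (0.557), while in tdTom+ it kept rank 1 (8.74). *Nkx2-2* was at rank 4 in tdTom+ and rank 7 in tdTom-, and *Lmx1a* at ranks 5 and 3, with and without mouse 7. *Pax6* was divided by 11694 bases, the union of its annotated exons, so its level per kilobase is a low estimate if only some of them are used.

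**Figure D3:**
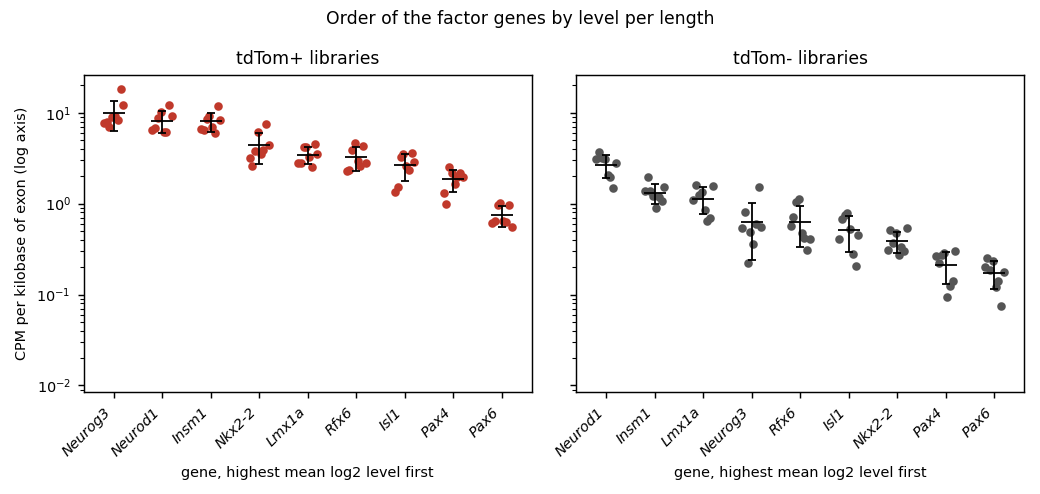
CPM per kilobase of exon (log axis) of the 9 factor genes in the tdTom+ (left) and tdTom- (right) libraries, with a point per mouse and the mean ± SD, each panel ordered by its own mean log2 level. *Neurog3* leads the tdTom+ panel at 9.95 and is at 0.634 in the tdTom- panel, where *Neurod1* leads at 2.68.

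A list of 16 further factors known from the enteroendocrine lineage was set beside the 9 genes. It was chosen with earlier results of these data known, so its counts are a description. The part of goblet, Paneth and tuft cells in the levels of these 16 genes was not tested. All 16 were called higher in tdTom+, against 25.8% of all genes tested. For 14 the fractions did not overlap, while 14.6% of all genes tested were higher with no overlap. All 16 were higher in 8 of 8 mice, as were 3507 of 15323 genes tested. Their median log2 difference was 2.13. The largest differences were those of *Runx1t1*, a transcriptional corepressor, at 3.25 (SE 0.27, adjusted p = 1.3e-07), *Foxa2*, a forkhead factor, at 3.23 (SE 0.13, adjusted p = 1.0e-10), and *Fev*, an ETS factor of serotonergic cells, at 3.10 (SE 0.17, adjusted p = 2.2e-09). *St18* followed at 2.71, *Prox1* at 2.52 and *Myt1* at 2.42. None exceeded the 4.01 of *Neurog3* in fitted size, a comparison that was not tested. Fractions overlapped for *Hhex*, a factor of somatostatin cells (1.41, adjusted p = 7.8e-04), and for *Mnx1* (1.19, adjusted p = 3.1e-05), and the smallest differences were those of *Sox4* (1.04) and *Rfx3* (0.99).

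A list of 12 product genes of mature enteroendocrine cells was likewise chosen with earlier results known. Of these, 11 were called higher in tdTom+, against 25.8% of all genes tested, with a median log2 difference of 1.26. For 9 the fractions did not overlap, while 14.6% of all genes tested were higher with no overlap. *Tac1*, the tachykinin precursor, had the largest difference at 3.78 (SE 0.15, adjusted p = 7.2e-11), and its level was 39.9 ± 11.6 CPM in tdTom+ against 2.89 ± 0.926 CPM in tdTom-. *Gcg*, the proglucagon gene, was at 3.38 (SE 0.17, adjusted p = 6.4e-10). The ghrelin gene *Ghrl* was at 2.06, the granule gene *Chgb* at 1.98 and the secretin gene *Sct* at 1.28. The neurotensin gene *Nts* had a difference of 0.06 (SE 0.17, adjusted p = 0.769) and was higher in tdTom+ in 4 of 8 mice. *Pyy*, the peptide YY gene, was at 0.66 (SE 0.17, adjusted p = 0.00418), but was not called without the pairing by mouse (0.61, adjusted p = 0.0284).

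**Figure D4:**
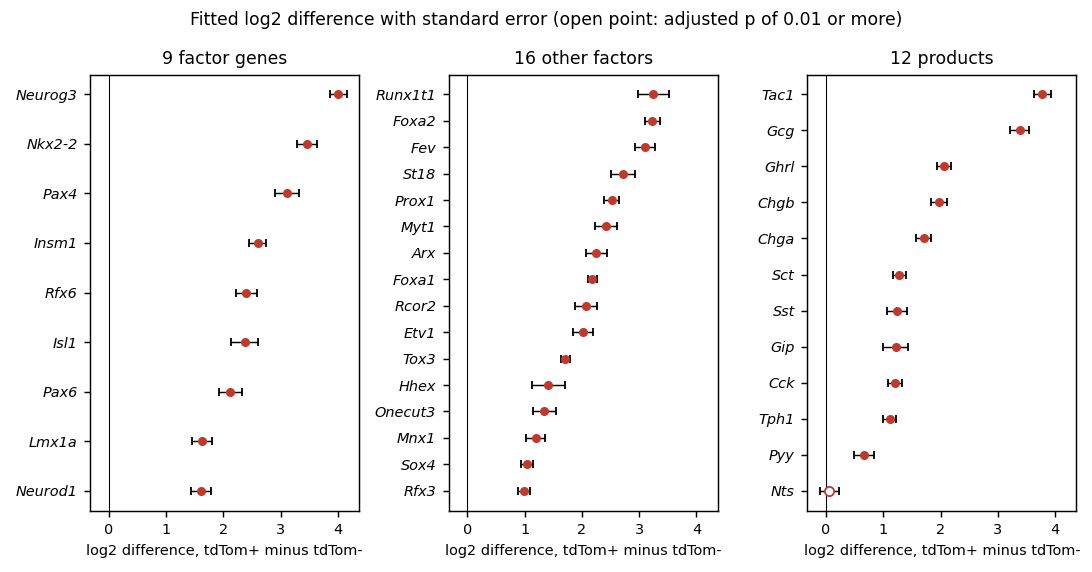
Fitted log2 difference (tdTom+ minus tdTom-) with its standard error for the 9 factor genes, 16 other enteroendocrine factors and 12 product genes; a filled point passed an adjusted p of 0.01 and the open point, *Nts*, did not. The factor genes span 1.61 to 4.01 and the products 0.06 to 3.78.

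Several of these factors are also used in pancreatic islets or in neurons, so markers of such cells were read in the same libraries. Of 6 islet markers, *Ins1* and *Ins2* were at 0 in all 16 libraries and *Nkx6-1* and *Mafa* at no more than 1 count. The islet sum was 5.16 to 14.3 CPM in tdTom+ and 4.56 to 10.3 CPM in tdTom-, carried by *Iapp* (log2 difference 0.78, adjusted p = 8.8e-04) and *Pdx1* (0.21, adjusted p = 0.0535), of which *Pdx1* is also a factor of the duodenal epithelium. Of 6 markers of enteric neurons and glia, *Sox10* was at 0 in all libraries and *S100b* at no more than 3 counts. Their sum was 10.6 to 18.4 CPM in tdTom+ and 2.46 to 8.74 CPM in tdTom-, of which *Ret* made 13.3 ± 2.37 and 5.39 ± 2.02 CPM, with a log2 difference of 1.35 (adjusted p = 2.3e-06). Tuft markers were called higher for 4 of 4 genes, against 25.8% of all genes tested (sum 58.7 to 203 CPM in tdTom+, 10.9 to 52.2 CPM in tdTom-). By staining, the paper found no tdTom in tuft cells or ChgA+ enteroendocrine cells a day after tamoxifen. It found the label in enteroendocrine cells some days later. RNA and staining were not compared here, and the tamoxifen schedule of these libraries was not resolved. Of the lymphocyte markers 3 were tested, 2 were lower in tdTom+ and the sum of all 4 was 2.4 to 8.41 CPM against 5.01 to 33.0 CPM. The part of islet, neuronal, glial, tuft and lymphoid cells in the levels of *Ret* and of the 9 factors was not tested.

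For each factor, the genes whose 8 per-mouse differences lay closest to its own were found among 13952 genes with a mean of at least 1 CPM, by root mean square distance on the log2 scale. The points of this measure share libraries, and it is a description. *Neurog3* lay closest to *Dpysl2* (distance 0.40), *Txndc5* (0.43) and *Hk1* (0.44), and its nearest fellow factor was *Nkx2-2* at rank 161 (0.93). *Isl1* and *Rfx6* were each other's nearest gene (0.31). *Neurod1* lay closest to *Gprc5c* (0.17), *Cpe*, which encodes a prohormone-processing carboxypeptidase (0.19), and *Rbp4* (0.22), and *Lmx1a* to *Alox5* (0.16), *Ppp1r14c* (0.23) and also *Rbp4* (0.23). *Insm1* lay closest to *Vwa5b2* (0.23), *Pax4* to *Nrep* (0.28), *Nkx2-2* to *Ffar2*, a receptor for short-chain fatty acids (0.33), and *Pax6* to *Fbxl16* (0.30). The distances were smallest for the 2 factors with the smallest differences.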

How the data were processed

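The authors aligned 50 bp single-end reads to GRCm38.p3 with TopHat2 2.1.1 per the submitters' processing notes, which also name Subread 1.5.2 and DESeq2 1.14.1. The values deposited by the authors are raw counts for each Ensembl gene, which per the file headers came from featureCounts 1.5.0-p1. Only primary alignments on the reverse strand of exons were counted, and reads shared by overlapping genes were left out. No normalisation had been applied.

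Symbols came from GENCODE M21, which matched 44671 of 45513 gene identifiers; gene bounds are those of the deposited files and differed from GENCODE for *Rfx6*. Groups came from the group label and mouse numbers from the sample titles. Both fractions came from each mouse by the series design, and the pairing was checked: deviations from the fraction means correlated within mice (r = 0.245 to 0.634, mean 0.426) and between mice on average at -0.0569, and 8 of 8 mice matched themselves best. The main comparison was therefore the quasi-likelihood F-test of edgeR 4.0.16 (R 4.3.3) with TMM factors, filterByExpr and the mouse as block, adjusted by the Benjamini-Hochberg method over 15323 genes with a threshold of 0.01. The standard error is the log2 difference divided by the square root of F. Pairs of genes were compared on log2 TMM-normalised CPM (prior count 2) with a two-sided exact test that flips the sign of each mouse's difference (256 patterns) and a threshold of 0.05. The alternatives were no block, other scalings, other filters on low counts, DESeq2 1.42.0, limma-voom (limma 3.58.1), a prior count of 0.5, levels without division by gene length, libraries thinned to the smallest total and leaving out each mouse in turn.

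The 9 genes and all lists were chosen with earlier results of these data known. The genes named were the 9 factors, *Atoh1*, up to 6 genes with the largest difference in each of the other factor and product lists, the 3 genes closest to each factor (for some only the closest is given) and list markers. *Tph1*, *Nts*, *Pyy*, *Sst*, *Hhex*, *Mnx1*, *Sox4* and *Rfx3* fall outside this rule and were named after their values had been seen. Genes and libraries were described by counts and ranges, and no test over a gene list was made. A marker of enteric neurons and glia is not reported here. The mice were separate animals, so p values measure the spread between mice. Limits that rest on counts cover counting error only.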

Additional observations from a re-analysis of the deposited data

Results flagged for a closer look

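A single library stood far from the other 7 of its fraction in 2 of 76 sets of 8 libraries examined (its gap to the nearest library, as a share of the whole range, was above Dixon's 95% limit for 8 values), where about 3.8 would be expected by chance, and none of these sets was one of the 9 factors. For *Fev*, the ETS factor of serotonergic cells, the tdTom- library of mouse 5 was the lowest at -0.74 log2 CPM, from 11 counts, against -0.07 to 0.31 in the other tdTom- libraries, a gap of 0.638 of the range. For the somatostatin gene *Sst*, the tdTom- library of mouse 7 was the lowest at 3.89 log2 CPM, from 322 counts, against 5.67 to 6.54, a gap of 0.671 of the range.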

How the results depend on the processing

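Under each alternative that gave a value, all 9 factors stayed higher in tdTom+ and past the threshold. This held for 17 alternatives, and for 16 in the case of *Neurog3* and *Pax4*, which a minimum of 10 counts in every library removed. The log2 difference ranged from 3.93 to 4.12 for *Neurog3*, 1.43 to 1.74 for *Neurod1*, 2.47 to 2.72 for *Insm1*, 3.0 to 3.23 for *Pax4*, 2.22 to 2.59 for *Rfx6*, 3.28 to 3.61 for *Nkx2-2*, 2.17 to 2.54 for *Isl1*, 1.94 to 2.24 for *Pax6* and 1.49 to 1.75 for *Lmx1a*. Without the replicate block for the mouse, *Neurog3* was at 3.96 and *Neurod1* at 1.61, and the block changed the call of no factor; it changed the calls of *Pyy* and of *Pax6* against *Chga*, given above. The median of all genes moved by over 0.1 with the minimum of 10 counts (to 0.1235) and without mouse 3 (to 0.1224), and the split of all calls moved from 3956 higher and 4600 lower to 4448 and 3356 and to 4529 and 3626. With total counts it was 3414 and 4976.

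The order of levels depended on the division by gene length. Without it, the log2 level of *Neurog3* minus that of *Neurod1* in tdTom+ was -0.57, that of *Neurod1* minus *Insm1* was -0.17 and that of *Pax4* minus *Pax6* was -1.27. In tdTom- *Neurog3* minus *Rfx6* was -1.33 and *Pax4* minus *Pax6* was -2.04, and 6 of 8 neighbour pairs passed in place of 3. *Pax4* above *Pax6* in tdTom- was also lost with a prior count of 0.5 (0.34, exact test, adjusted p = 0.104). Leaving out mouse 3 added *Neurog3* above *Neurod1* (0.34, exact test, adjusted p = 0.0417) and *Nkx2-2* above *Lmx1a* (0.35, exact test, adjusted p = 0.0417) in tdTom+, and leaving out mouse 7 added *Lmx1a* above *Neurog3* in tdTom- (1.11, exact test, adjusted p = 0.0312). *Pyy* lost its call without mouse 5 (adjusted p = 0.0126) or mouse 6 (adjusted p = 0.0105). Low counts limit *Pax4* and *Neurog3* in tdTom-, and 50 bp reads leave the isoforms of *Pax6* unresolved.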
